A study of Saccharomyces cerevisiae with 8 samples.

Results

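Xrn1-sensitive unstable transcripts (XUTs) of budding yeast usually hold several short open reading frames (ORFs), but 291 of the 1634 XUTs examined held only 1 or 2. Their ORFs are described here. They were chosen by counting the ORFs that the authors list for each XUT and keeping every ORF of a XUT with 1 or 2, which left 461 of 13912 ORFs. Of these, 121 were the single ORF of their XUT and 340 came as pairs in 170 XUTs. The other 1343 XUTs held 3 or more ORFs each, 13451 in all. ORFs of the 2-micron plasmid were left out. The choice used no read count.

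The study sequenced ribosome-protected RNA fragments (Ribo-seq) of Saccharomyces cerevisiae BY4741, a haploid laboratory strain with the genotype MATa his3Δ1 leu2Δ0 met15Δ0 ura3Δ0, in 4 conditions. WT cells carried no further mutation, and upf1 cells carried in addition upf1*::kanMX4. Both strains grew at 30 °C in YPD medium until the OD600 reached 0.5 and were then given cycloheximide (CHX) for 15 min or left untreated. The labels list 8 libraries, 2 biological replicates per condition, but the table used here holds 1 count and 1 phase score per ORF and condition, with the replicates merged. No spread between cultures can therefore be computed, no difference below has a replicate check or a p-value, and each interval printed below covers counting error only.

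XUTs are long noncoding RNAs that accumulate when Xrn1, the main cytoplasmic 5′ to 3′ exonuclease, is missing, and many lie antisense to protein-coding genes. Upf1 is an RNA helicase that is needed for nonsense-mediated decay, the pathway that removes RNAs on which ribosomes stop early. Short ORFs in a noncoding RNA can bring a transcript to this pathway, since a long untranslated stretch follows their stop codon. CHX blocks elongating ribosomes, so treated cells keep ribosomes on their RNAs.

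The sequences of 8 ORFs are shown because they include the most-read members and several of the XUTs with the lowest or highest ratios between conditions described below. Each line gives 12 bases upstream, the ORF and its stop codon on the coding strand, 5′ to 3′, from the RefSeq R64 genome. Capitals mark the base at position -3 from the start codon, the ATG and the stop codon.
XUT1547 first ORF, chr13:258851-258919, minus strand: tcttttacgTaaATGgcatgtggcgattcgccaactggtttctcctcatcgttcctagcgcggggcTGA
XUT1547 second ORF, chr13:258825-258914, minus strand: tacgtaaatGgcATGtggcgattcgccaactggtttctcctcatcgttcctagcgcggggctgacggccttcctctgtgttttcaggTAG
XUT1492 single ORF, chr12:614444-614542, minus strand: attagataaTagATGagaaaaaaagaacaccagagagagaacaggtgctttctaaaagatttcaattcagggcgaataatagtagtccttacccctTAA
XUT0664 single ORF, chr12:669197-669313, plus strand: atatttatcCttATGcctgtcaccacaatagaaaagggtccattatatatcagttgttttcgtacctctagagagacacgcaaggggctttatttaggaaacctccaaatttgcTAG
XUT1049 first ORF, chr4:444051-444152, minus strand: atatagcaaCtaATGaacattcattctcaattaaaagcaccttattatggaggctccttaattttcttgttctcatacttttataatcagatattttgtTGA
XUT0233 first ORF, chr4:1319429-1319593, plus strand: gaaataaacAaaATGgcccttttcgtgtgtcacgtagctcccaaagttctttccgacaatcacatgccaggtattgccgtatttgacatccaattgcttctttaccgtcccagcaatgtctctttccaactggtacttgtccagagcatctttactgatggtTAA
XUT1567 first ORF, chr13:399958-400080, minus strand: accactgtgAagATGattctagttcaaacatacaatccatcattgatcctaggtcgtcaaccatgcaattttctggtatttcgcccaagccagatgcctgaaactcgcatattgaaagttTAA
XUT1053 first ORF, chr4:489176-489214, minus strand: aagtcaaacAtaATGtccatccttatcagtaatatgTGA

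The first and second ORFs of XUT1547 started 5 nt apart in different frames and shared 49 nt, so the reads in the shared stretch cannot be told apart between them. The first ORF of XUT1053 was 24 nt long, shorter than a ribosome footprint. An A stood at position -3 in XUT0233, XUT1567 and XUT1053 and another base in the other 5.

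The median length of the 461 ORFs was 51 nt, with a range of 15 to 309 nt, and the median in the other XUTs was 48 nt. Median GC content was 40.4% against 39.3%. In all, 246 of them (53.4%) lay antisense to a coding sequence (CDS), opposite 160 genes, and 215 (46.6%) overlapped no CDS. None overlapped a CDS on its own strand, as 50 ORFs of the other XUTs did. A CDS on the same strand began within 300 nt ahead of 26 ORFs (5.64%), against 136 ORFs (1.01%) of the other XUTs. Of the ORFs, 94 (20.4%) overlapped the other ORF of their pair, never in the same frame, and none overlapped an ORF of another XUT, while 62.2% of the remaining ORFs overlapped another listed ORF. The base at -3 was A in 28.9% of these ORFs and in 29.0% of the others, and the stop codon was TAA in 38.4% and 39.2%.

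Most of these ORFs held few footprints. Over the 4 conditions together, 182 ORFs (39.5%) had no read, 146 had 1 to 3, 55 had 4 to 9, 64 had 10 to 49 and 14 had 50 or more. The share without a read was 39.3% among the other ORFs. By transcript, 84 of the 291 XUTs (28.9%) had no read in any ORF, against 7.07% of the XUTs with 3 or more ORFs and 18.75% of those with exactly 3. These values count XUTs with unlike numbers of ORFs. Over first ORFs alone, 34.0% of the members' had no read, against 21.9% of the others. Reads in all 4 conditions were found in 56 ORFs. A further 7 ORFs had reads only in WT and 17 only in upf1, and with CHX 33 had them only in WT and 39 only in upf1. The counts for a single condition rose in the same order as the reads summed over XUT ORFs. Those were 3329 in WT and 17826 in upf1, and with CHX 25584 in WT and 31633 in upf1. The same counts were not taken for the other ORFs. The shortest members, at 15 nt, numbered 21, of which 14 had no read and the highest had 13. The longest, a 309-nt ORF of XUT0472 antisense to IMP21 (chr9:53991-54299), had 2 reads in WT and 4 in upf1, and with CHX 2 in each strain. The only mitochondrial member, in XUT1811 antisense to ATP6, which encodes a subunit of the ATP synthase, had none.

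At least 1 read was found for 79 of the 461 (17.1%) in WT and 139 (30.2%) in upf1, and with CHX for 198 (43.0%) in WT and 208 (45.1%) in upf1. The corresponding shares of the other ORFs were 13.8% and 36.3% without CHX and 39.4% and 41.5% with it. These shares include overlapping ORFs, which were 20.4% of the members and 62.2% of the others. In untreated upf1 the members' interval, 26 to 34.6%, lay below the share of the others. With CHX their intervals, 38.4 to 47.6% in WT and 40.5 to 49.8% in upf1, held it, and over ORFs that overlap no other the share in upf1 + CHX was 40.1%. With ORFs that overlap another one counted once, at the one with more reads, the members held 202 of 3329 reads in WT and 435 of 17826 in upf1, and with CHX 1333 of 25584 in WT and 1284 of 31633 in upf1. These totals hold XUT ORFs only and are no library depth, so conditions are compared by shares of these reads.

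A few ORFs held a large part of the reads. The 5 most-read XUTs held 42.6% of the members' reads in WT and 30.3% in upf1, and with CHX 26.9% in WT and 27.8% in upf1. Of the reads of the other XUTs, which are more numerous, the top 5 held 13.9% in WT and 7.84% in upf1, and with CHX 6.75% and 5.91%. Below, 4 values given without a condition stand in the order WT, upf1, WT + CHX and upf1 + CHX.

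**Figure D1:**
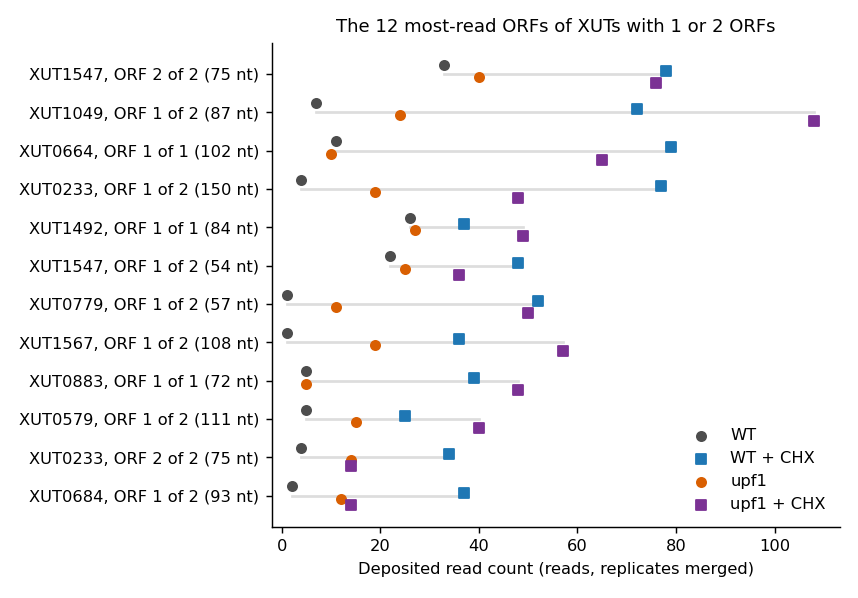
Deposited read counts (horizontal axis, reads with replicates merged) of the 12 ORFs with the largest pooled count, 1 row per ORF, with circles for untreated and squares for CHX-treated cells. The ORF of XUT1492 and both ORFs of XUT1547 have more than 20 reads in WT, and the other 9 ORFs have at most 11 there.

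The second ORF of XUT1547, 75 nt long and 411 nt ahead of GIS4 on the same strand, had the most reads of all members, with 33 in WT and 40 in upf1, and with CHX 78 in WT and 76 in upf1. The overlapping 54-nt first ORF had 22, 25, 48 and 36 reads. Both held nearly the same count in upf1 as in WT, while the reads of all XUT ORFs numbered 3329 in WT and 17826 in upf1. In XUT1049 the first ORF, 87 nt long and with ATP16, a subunit gene of the ATP synthase, as its nearest gene at 542 nt, had 7 reads in WT, 24 in upf1, 72 in WT + CHX and 108 in upf1 + CHX. Its second ORF, of 72 nt, had no read in any condition. The single 102-nt ORF of XUT0664, 157 nt from TMA7, a gene of the translation machinery, on the opposite strand, had 11, 10, 79 and 65 reads. The counts of both were highest with CHX, where the reads of all XUT ORFs were also more numerous, and as a share of those reads XUT0664 was not higher with CHX in WT, at 0.935 times (0.495 to 1.95).

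The other ORFs of the 12 outside coding sequence belong to XUT1492, XUT0779 and XUT0883. The single 84-nt ORF of XUT1492, 224 nt from FAR10 on the opposite strand, had 26 reads in WT, 27 in upf1, 37 in WT + CHX and 49 in upf1 + CHX, the flattest series of counts of the 12. Its share of the reads was therefore lower in upf1 and in WT + CHX than in WT, with the ratios given below. XUT0779's first ORF, 57 nt long and 254 nt beyond FRE4, a ferric reductase gene on the same strand, had 1, 11, 52 and 50 reads. The single 72-nt ORF of XUT0883, 52 nt from HTC1 on the opposite strand, had 5, 5, 39 and 48 reads. A CDS on its own strand also began within 300 nt ahead of it. Its reads therefore cannot be told apart from reads on a longer messenger RNA of that gene.

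The antisense members among the 12 were the ORFs of XUT0233, XUT1567, XUT0579 and XUT0684. In XUT0233 the first ORF, 150 nt long and opposite DYN2, which encodes a dynein light chain, had 4 reads in WT, 19 in upf1, 77 in WT + CHX and 48 in upf1 + CHX, and the overlapping 75-nt second ORF had 4, 14, 34 and 14. In XUT1567 it was 108 nt long, lay opposite KAR5, a gene of nuclear fusion during mating, and had 1, 19, 36 and 57 reads. In XUT0579, opposite the type I myosin gene MYO3, a first ORF of 111 nt had 5, 15, 25 and 40 reads. In XUT0684, opposite MDM1, a first ORF of 93 nt had 2, 12, 37 and 14 reads. The WT counts of these 5 ORFs were at most 5. Their counts were higher in upf1, where the total was higher too, and as shares XUT0579 and XUT0233 stood at 0.560 and 0.887 times their WT level, with intervals that held 1.

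In XUTs with 2 ORFs, the ORF nearer the 5′ end held more reads. Of the 123 pairs whose ORFs do not overlap, 32 had a read in WT, and the first ORF had more in 21 and the second in 9. In upf1 the first led in 34 and the second in 15 of 54 pairs. With CHX it led in 50 against 19 of 70 pairs in WT and in 44 against 17 of 63 in upf1. Read density was 6.77 reads per kb in the first ORFs against 2.83 in the second in WT and 21.1 against 7.44 in upf1. With CHX it was 58.9 against 22.9 in WT and 61.6 against 21.9 in upf1. The first ORF was also the longer one, with a median of 54 nt against 42 nt, and the median gap between the pair was 49 nt. XUT1053, 305 nt from SES1, the gene of seryl-tRNA synthetase, shows the pattern. Its 24-nt first ORF had 0 reads in WT, 1 in upf1, 31 in WT + CHX and 24 in upf1 + CHX, and its 36-nt second ORF had 0, 1, 9 and 10. The most-read pair, in XUT1547, overlaps and is not among these.

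First ORFs of XUTs with 1 or 2 ORFs held fewer reads than those of XUTs with more. A read was found in 19.6% of the 291 first ORFs (95% exact interval 15.2 to 24.6) in WT, against 28.6% (26.2 to 31.1) of the 1343 others. In upf1 the shares were 34.0% (28.6 to 39.8) and 53.4% (50.7 to 56.1). With CHX they were 48.5% (42.6 to 54.4) and 65.1% (62.5 to 67.6) in WT, and 49.5% (43.6 to 55.4) and 67.7% (65.1 to 70.2) in upf1. The counting intervals did not overlap in any condition. In these shares a read in a stretch shared with another listed ORF can count for both. Another listed ORF overlapped 42.4% of the other first ORFs and 16.2% of the members' first ORFs. Where listed ORFs overlap, the densities below keep the one with the larger pooled count, with all its reads. This kept 278 of the 291 member first ORFs and 1174 of the 1343 others. How far this choice by read count sets the densities was not tested. Reads per kb of first ORFs were 7.79 against 14.2 in WT and 17.8 against 82.9 in upf1, and with CHX 56.6 against 132 in WT and 54.4 against 171 in upf1. The other first ORFs were thus 1.83-fold denser in WT and 4.65-fold denser in upf1. In WT the densities were nearly equal at 15 to 30 nt, where the other first ORFs were 1.04-fold denser, from 21 member reads. They were denser 2.84-fold at 31 to 60 nt, 1.69-fold at 61 to 150 nt and 2.56-fold above 150 nt. In upf1 they were denser 2.38-fold at 15 to 30 nt, 6.48-fold at 31 to 60 nt, 4.18-fold at 61 to 150 nt and 12.2-fold above 150 nt, the last from 14 members with 19 reads. The level of the transcripts themselves was not measured in these files.

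**Figure D2:**
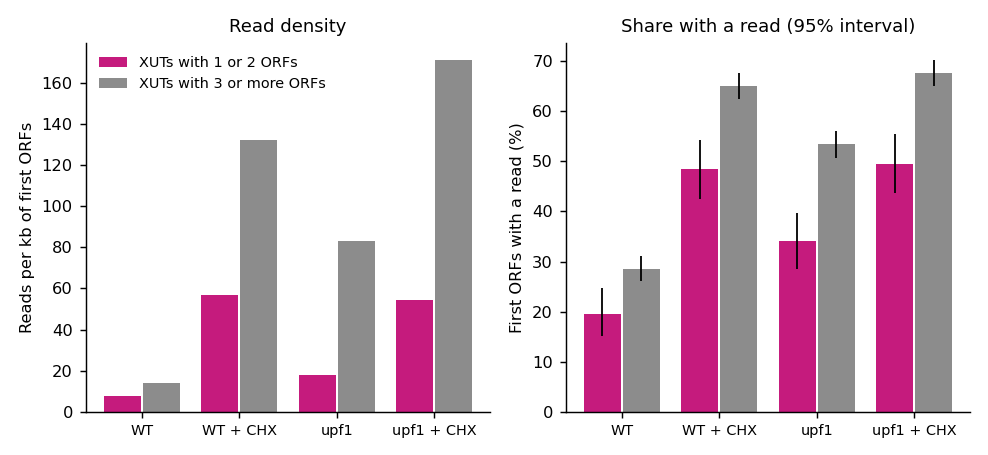
Left, reads per kb (vertical axis, linear) summed over the first ORFs of XUTs with 1 or 2 ORFs and of XUTs with 3 or more, by condition. Of overlapping ORFs only the one with the larger pooled count was kept there. Right, the percentage of those first ORFs with at least 1 read, with 95% exact binomial intervals for counting error. The bars for XUTs with 1 or 2 ORFs are the lower ones in each condition, at 17.8 against 82.9 reads per kb in upf1.

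The members' share of all XUT-ORF reads was lowest in upf1. It was 6.07% (5.28 to 6.93) in WT and 2.44% (2.22 to 2.68) in upf1. With CHX it was 5.21% (4.94 to 5.49) in WT and 4.06% (3.84 to 4.28) in upf1, while the members made up 4.15% of the ORF length. Per unit length their share was 1.46 times the even share in WT and 0.59 times in upf1. The XUTs with 3 ORFs were similar, at 1.61 and 0.69 times. In reads per kb the members stood at 7.51 against 5.03 for the other ORFs in WT and at 16.2 against 28.0 in upf1. With CHX they stood at 49.6 against 39.0 in WT and 47.7 against 48.8 in upf1. First ORFs made up 278 of the 414 member ORFs summed here, but 1174 of the 8879 others. Over first ORFs alone the members had the lower density in WT, at 7.79 against 14.2. Since shares sum to a whole, a lower share in upf1 does not show fewer footprints on the members' ORFs.

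The upf1 to WT ratio of the members' share was 0.402 (0.340 to 0.478) without CHX and 0.779 (0.721 to 0.842) with CHX. The ratios of the other XUTs were 1.04 and 1.01. Without XUT1547, XUT1492 and XUT0664, the 3 member XUTs with the most WT reads, the ratio without CHX was 0.498. That ratio followed the number of ORFs per XUT beyond the members. It was 0.24 (0.17 to 0.33) for XUTs with 1 ORF, 0.50 (0.41 to 0.62) with 2, 0.54 with 3 to 5, 0.91 with 6 to 10, 1.25 with 11 to 20 and 1.32 with more than 20. On both sides of the limit used to choose the members the ratios were close, at 0.50 for XUTs with 2 ORFs and 0.43 (0.36 to 0.51) for the 192 XUTs with 3. With CHX the order was flatter, from 0.76 with 1 ORF to 1.10 with 11 to 20 and 1.04 with more than 20.

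In upf1 cells the members' share with CHX was 1.66 times the share without it (1.49 to 1.86), and in WT cells it was 0.859 times (0.740 to 1.001). The difference between strains was not tested. The WT ratio is within counting error of 1, and its direction turned to 1.11 without XUT1547, XUT1492 and XUT0664. In upf1 the ratio was 2.10 for XUTs with 1 ORF, 1.54 with 2, 1.40 with 3 to 5, 1.16 with 6 to 10, 0.90 with 11 to 20 and 0.82 with more than 20. In WT it ran from 0.66 with 1 ORF to 1.07 with 6 to 10. The contrasts share their conditions, so the lower upf1 share without CHX enters both the upf1 and the CHX ratio.

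**Figure D3:**
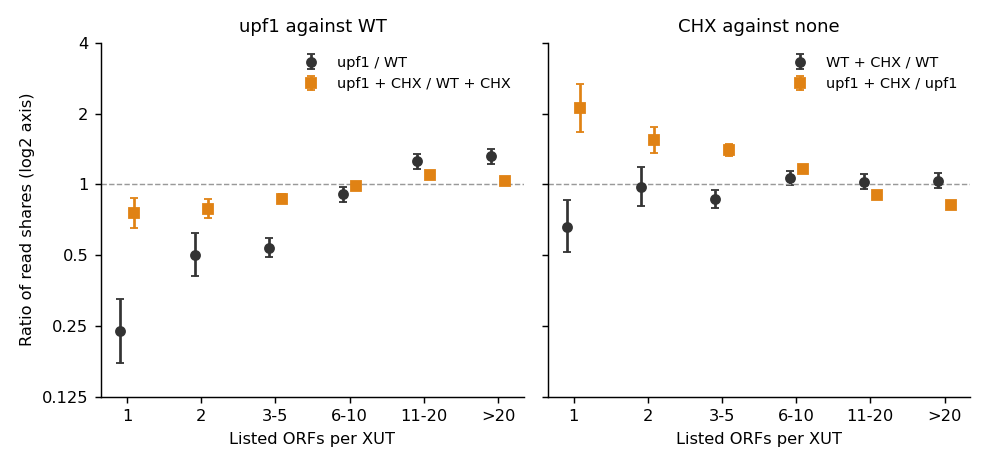
Ratio of read shares between conditions (vertical axis, log2 scale, 1 marked by the dashed line) for XUTs grouped by the number of listed ORFs (horizontal axis), with 95% exact conditional intervals for counting error. Left, upf1 against WT, from 0.24 with 1 ORF to 1.32 with more than 20 without CHX. Right, CHX against none, from 2.10 with 1 ORF to 0.82 with more than 20 in upf1.

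Each of the length classes had a ratio below 1. The upf1 to WT ratio of the members' share was 0.455 (0.275 to 0.774) for ORFs of 15 to 30 nt, 0.517 (0.326 to 0.844) for 31 to 60 nt, 0.391 (0.318 to 0.483) for 61 to 150 nt and 0.233 (0.115 to 0.482) above 150 nt, with intervals that overlap. The 116 ORFs of 15 to 30 nt had no read in 62 cases, but per kb they were not the poorest, with 10.0 reads in WT, 24.4 in upf1, 60.9 in WT + CHX and 52.2 in upf1 + CHX. The 21 ORFs above 150 nt lacked a read in 5 cases and had 4.09, 5.11, 16.4 and 16.1 reads per kb, the lowest density of the length classes in each condition. Among the shortest ORFs, the 21-nt first ORF of XUT1386, 320 nt from YJR027W on the opposite strand, had 6 reads in WT, 16 in upf1, 11 in WT + CHX and 12 in upf1 + CHX, and was highest without CHX. The 18-nt first ORF of XUT0222 had 1, 0, 16 and 7 reads. In XUTs with 2 ORFs the upf1 to WT ratio was 0.621 (0.477 to 0.816) for the first ORFs and 0.330 (0.233 to 0.474) for the second, of whose 52 WT reads 33 lay in XUT1547.

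The low share in upf1 was found mainly in ORFs outside coding sequence. Members that overlap no CDS had 167 of the WT reads and 289 of the upf1 reads, a share ratio of 0.323 (0.266 to 0.393), and antisense members had 35 and 146, a ratio of 0.779 (0.536 to 1.16). In the other XUTs the same ratios were 0.819 for ORFs without a CDS and 1.35 for antisense ORFs. Antisense ORFs thus had the higher ratio of these classes in both sets, and the interval of the antisense members held 1. Among members that overlap no CDS, the 5 most-read XUTs held 51.5% of the WT reads and 43.9% of the upf1 reads. The ratio of this class without them was not computed. With CHX the classes came together, at 0.774 (0.705 to 0.849) without a CDS and 0.791 (0.686 to 0.911) antisense. Among members without a CDS, the upf1 ratio without CHX was 0.344 (0.241 to 0.495) where the nearest gene lay ahead on the opposite strand. It was 0.316 (0.226 to 0.444) where that gene lay behind on the opposite strand and 0.261 (0.183 to 0.377) where it lay ahead on the same strand. The ratio was 1.03 (0.349 to 4.10) for the 22 ORFs with the nearest gene behind on the same strand, from 4 WT reads. Single XUTs weigh heavily here. XUT1547 held 33 of the 55 WT reads with the gene ahead on the same strand, and XUT1492 held 26 of the 58 with it behind on the opposite strand. ORFs with a same-strand CDS within 300 nt ahead, whose reads cannot be told apart from reads on a longer messenger RNA of that gene, had a ratio of 0.373 (0.185 to 0.792), and the other members had 0.404 (0.339 to 0.483). By the base at -3 the ratio was 0.492 with A, 0.458 with C, 0.349 with G and 0.336 with T, with intervals that overlap.

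By transcript, 8 members had at least 20 reads in WT and upf1 together, and their share ratios had a median log2 of -1.05. Of the 8, 4 were at least 2-fold lower in upf1, where 9.09% of the 275 XUTs at that depth were, and 1 was at least 2-fold higher, where 27.3% of all were. The median of the 267 other XUTs was 0.42 on the log2 scale. The lowest ratio was that of XUT0664, 0.170 (0.0646 to 0.440), from 11 reads in WT and 10 in upf1, followed by XUT1492 at 0.194 (0.109 to 0.346) and XUT1547 at 0.226 (0.139 to 0.370). The fourth was XUT1386, 0.456 (0.202 to 1.13), from 9 and 22 reads. XUT1567 was the 1 member above, at 3.55 (0.564 to 147), from 1 read in WT and 19 in upf1. XUT0233 stood at 0.887 and XUT1049 at 0.640, both with intervals that held 1. The filter keeps the most-read members only, and the counts moved with the read minimum, as given under the processing alternatives.

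With CHX, 32 members passed the same minimum. None was at least 2-fold higher in upf1, where 4.6% of all 631 XUTs were, and 6 were at least 2-fold lower, where 6.5% of all were. Their median log2 ratio was -0.57 and 26 of the 32 lay below 0, against a median of -0.04 for the 599 other XUTs, of which 323 lay below 0. The lowest were XUT0983, beside APD1, at 0.294 (0.113 to 0.686), from 22 reads in WT + CHX and 8 in upf1 + CHX, XUT0684 at 0.306 (0.153 to 0.580), and XUT0222, near SVF1, at 0.354 (0.123 to 0.909). The reads of XUT0222 came from an 18-nt first ORF, with 16 reads in WT + CHX and 7 in upf1 + CHX. The highest were XUT0579 at 1.29 (0.766 to 2.23), XUT1567 at 1.28 (0.829 to 2.00) and XUT1049 at 1.21 (0.892 to 1.66), all with intervals that held 1. Of the 3 lowest members without CHX, XUT0664 stood at 0.665 (0.472 to 0.936) with it, XUT1547 at 0.788 (0.567 to 1.09) and XUT1492 at 1.07 (0.685 to 1.69).

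In WT the members lay on both sides of 1 with CHX. Of 22 members, 7 were past 2-fold higher with CHX on the scale with a pseudocount of 0.5, where 28.4% of 409 XUTs were, and 4 were at least 2-fold lower, where 11.5% of all were. The 7 include XUT1053 and XUT1454, which had no WT read and whose lower bounds given below do not reach 2-fold, and 5 XUTs passed with a pseudocount of 1. The median log2 ratio was 0.18, against 0.20 for the others, and it was -0.04 with a pseudocount of 1. With at least 4 reads in each condition, 1 of 12 members was at least 2-fold higher and 6 were at least 2-fold lower. The lowest were XUT1492 at 0.185 (0.109 to 0.318), XUT1547 at 0.308 (0.202 to 0.477) and XUT1032 at 0.372 (0.151 to 1.04), the last a single 204-nt ORF with 7 reads in WT and 20 in WT + CHX. XUT1454 lies antisense to GLG1, a glycogenin gene. Against a floor of 3 WT reads, XUT1053 was at least 1.73-fold higher with CHX and XUT1454 at least 1.21-fold higher, from 40 and 28 reads. XUT0779 followed at 6.90 (1.19 to 277), from 1 and 53 reads.

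In upf1, the members lay mostly above 1 with CHX. Of 19 members, 10 were at least 2-fold higher, where 18.7% of 536 XUTs were, and none was at least 2-fold lower, where 9.51% of all were. The median log2 ratio was 1.00 with 17 of 19 above 0, against 0.14 for the 517 others. The minimum counts reads of both conditions together, so a XUT with few reads without CHX passes mainly through its CHX reads. With at least 4 reads in each condition, 6 of 27 members were at least 2-fold higher and 2 were at least 2-fold lower. The share of all XUTs was not computed at that setting. Among the 19, the highest was XUT1053 at 9.58 (2.46 to 82.3), from 2 reads without and 34 with CHX. XUT0883 followed at 5.41 (2.16 to 17.4), from 5 and 48, with the limit on its reads given above. XUT1296, near NOP10, a gene of the box H/ACA ribonucleoprotein, and XUT1454 both stood at 5.35 (1.29 to 47.4), from 2 and 19 reads each. The lowest were XUT1386 at 0.538 (0.281 to 1.03), XUT0684 at 0.657 (0.282 to 1.56) and XUT1336, near SMU2, at 1.05 (0.388 to 3.10). XUT1547 and XUT1492, the lowest with CHX in WT, were near 1 here, at 1.07 and 1.02.

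**Figure D4:**
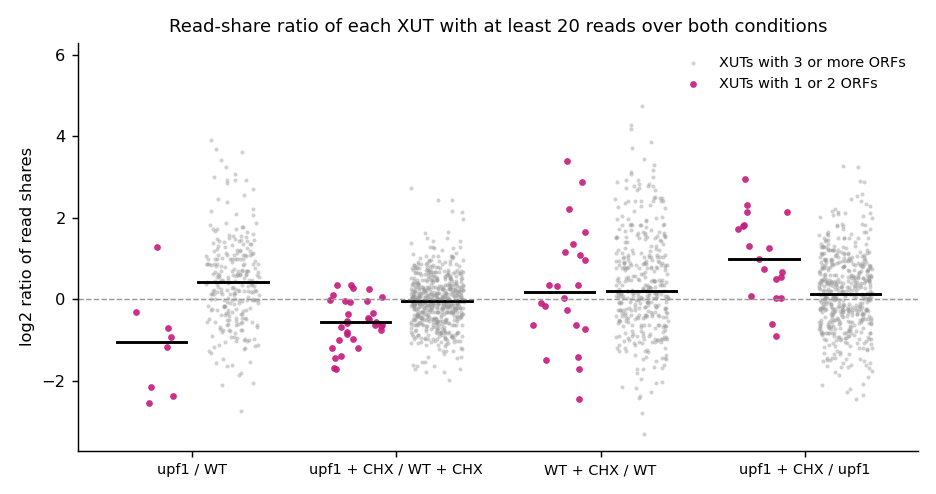
log2 ratio of read shares (vertical axis) of each XUT with at least 20 reads over both conditions, in 4 contrasts, with 1 point per XUT and a bar at the median. XUTs with 1 or 2 ORFs have medians of -1.05, -0.57, 0.18 and 1.00 from left to right, and the others have 0.42, -0.04, 0.20 and 0.14.

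The phase score of an ORF runs from 0 to 1 and is higher where the reads keep to a codon frame. It is only read at 10 or more reads, since 97.6% of the 41 members with 1 read in WT scored 1. At that depth, with a score of at least 0.32 called framed, 3 of 4 members were framed in WT, where 68.1% of all ORFs at that depth were, and 6 of 12 in upf1 (95% interval 21.1 to 78.9%), where 62.5% of all were. With CHX 24 of 37 were framed in WT (64.9%, 47.5 to 79.8), where 64.2% of all were, and 24 of 32 in upf1 (56.6 to 88.5%), where 72.6% of all were. The members lay near these shares with CHX, and in the untreated conditions too few passed the read minimum to compare. Their median scores were 0.38, 0.32, 0.36 and 0.41, against 0.41, 0.38, 0.38 and 0.44 for the other XUTs.

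Only 4 members, in XUT1547, XUT1492 and XUT0664, had at least 10 reads in all 4 conditions. The second ORF of XUT1547 scored 0.387 in WT, 0.349 in upf1, 0.354 in WT + CHX and 0.460 in upf1 + CHX, above the threshold in each, and the overlapping first ORF scored 0.295, 0.269, 0.337 and 0.464. XUT1492 scored 0.391, 0.286, 0.318 and 0.408, and XUT0664 scored 0.378, 0.289, 0.209 and 0.375. In each of these the untreated upf1 score lay below the untreated WT score, with a median difference of -0.064, and 30 of 42 other ORFs had the same sign. In XUT1049 the first ORF scored 0.370 from 108 reads in upf1 + CHX, above the threshold, but 0.226 from 72 reads in WT + CHX and 0.108 from 24 reads in upf1. The 24-nt ORF of XUT1053 scored 0.764 in WT + CHX and 0.157 in upf1 + CHX from 31 and 24 reads. Between upf1 + CHX and upf1 the median score difference over 12 members was 0.098, with 8 higher with CHX and 4 lower, while that of 424 other ORFs was -0.006. The members' median was 0.028 at 5 or more reads, with 24 ORFs, and -0.078 for the 4 ORFs with similar counts in both conditions (at most 1.5-fold apart), so its direction is not settled.

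**Figure D5:**
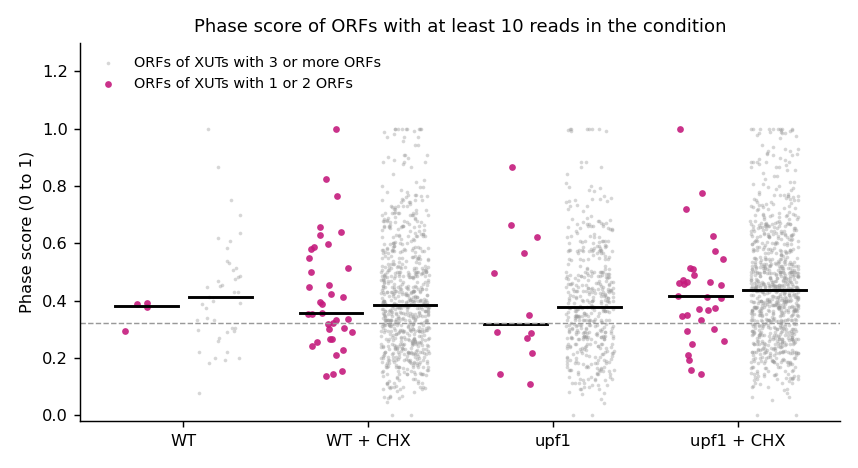
Phase score (vertical axis, 0 to 1) of each ORF with at least 10 reads in the condition, with a bar at the median and the 0.32 threshold dashed. The members, 4 and 12 in untreated WT and upf1 and 37 and 32 with CHX, have medians of 0.38, 0.32, 0.36 and 0.41.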

How the data were processed

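Ribosome-protected fragments were sequenced from WT and upf1 cells with and without CHX. The authors deposited a table of XUT ORFs with raw, unscaled whole-number counts per condition. The authors also deposited a phase score per ORF and condition. The genome build R64 and the tools HISAT2 2.2.0, cutadapt and UMI-tools are named per the submitters' processing notes. How replicates were merged, how ORFs were listed and how the score was computed is not given in the sources used here.

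Members, lists and thresholds were chosen with earlier results of these data known. ORF coordinates are 1-based (R64) and leave out the stop codon. Reads were summed over 9293 ORFs that do not overlap each other. They were taken in order of pooled count, so of overlapping ORFs the more-read one was kept with all its reads. Share ratios have exact conditional 95% intervals and shares exact Clopper-Pearson intervals (SciPy 1.17.1). Ratios of single XUTs needed 20 reads over both conditions, and the log2 values used a pseudocount of 0.5. Planned count tests were not run, since replicates are merged. Named ORFs are the 12 with the largest pooled count, the 3 XUTs at each end of every contrast, and the longest and shortest ORFs.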

Additional observations from a re-analysis of the deposited data

How the results depend on the processing

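No paired analysis was possible because the table merges the replicates of each condition, and for the same reason no replicate was left out. Of 148 alternatives over 36 results, 98 left a value within its interval or, for counts, within 1.5-fold, and 50 moved it further. For medians this interval is no counting interval. It spans ranked values of single XUTs or ORFs, over their full range where few were available. The medians of the log2 share ratios, phase scores and score differences stayed within their wide intervals, but 3 changed sign. The log2 median for CHX in WT went from 0.18 to -0.04 with a pseudocount of 1. Over ORFs with counts within 1.5-fold of each other, the score difference went from 0.098 to -0.078 for CHX in upf1 and from 0.029 to -0.028 for upf1 against WT with CHX. The alternatives that leave out the 3 member XUTs with most WT reads, or the most-read of the other XUTs, were chosen after seeing the data.

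With the 2-micron ORFs in the total, the members' share was 4.52% in WT and 2.17% in upf1, and with CHX 4.87% in WT and 3.83% in upf1. With overlapping ORFs counted in each, it was 2.13% in upf1, and with CHX 4.49% in WT and 3.44% in upf1. Without XUT1547 it was 5.13% in WT, 4.92% in WT + CHX and 3.83% in upf1 + CHX, and without XUT1547, XUT1492 and XUT0664 it was 4.05% in WT and 2.02% in upf1, and with CHX 4.49% in WT and 3.48% in upf1. The upf1 to WT ratio of the share was 0.481 with the 2-micron ORFs and 0.498 without the 3 XUTs. The CHX ratio in WT was 1.08 with the 2-micron ORFs, 1.11 without the 3 XUTs and 0.731 over the first ORFs alone, so its direction depends on these choices. The CHX ratio in upf1 was 1.39 over the first ORFs alone.

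Counts of XUTs past 2-fold depended on the read minimum. For upf1 against WT, the 1 higher XUT of 8 became 0 at 40 reads or at 4 reads in each condition. It also became 0 with a pseudocount of 1 or with all ORFs kept. The 4 lower became 7 of 14 at 10 reads, 2 of 2 at 40 and 8 of 11 at 4 in each condition. With CHX, 1 of 58 was higher at 10 reads. The 6 lower of 32 became 11 of 58 at 10 reads and 1 of 17 at 40. For CHX in WT, the 7 higher of 22 became 13 of 38, 3 of 8 and 1 of 12. These stand for 10 reads, 40 reads and 4 in each condition. The 4 lower became 8 of 38 at 10 reads and 2 of 8 at 40. For CHX in upf1, the 10 higher of 19 became 19 of 43, 4 of 10 and 6 of 27 at the same settings. At 10 reads 2 of 43 were lower, and at 4 in each condition 2 of 27. The share of all XUTs past 2-fold was not computed at these settings. At a score threshold of 0.5 the framed share was 0% of 4 ORFs in WT. With CHX it was 32.4% of 37 in WT and 25% of 32 in upf1. Among ORFs that overlap no other, it was 100% of 2 ORFs in WT and 16.7% of 6 in upf1. Their intervals, 15.8 to 100% and 0.42 to 64.1%, overlapped. The framed share of all ORFs was not computed at these settings. Of the ORFs that overlap no other, 40.1% had a read in upf1 + CHX. ORFs with at least 3 reads made up 4.12% in WT and 10.4% in upf1, and with CHX 21.5% in WT and 22.3% in upf1. The cause of these changes was not tested.

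Depth limits these results: WT holds 202 reads in these ORFs, and 8 member XUTs pass the read minimum between WT and upf1.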
